A study of Homo sapiens with 9 samples.

Results

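The genes described here are those whose RNA level shifted to the same side of wild type in both variants of PDCD4 at serine S239. In a single edgeR fit of 9 RNA-sequencing libraries, the average of the S239A and S239D group means was compared with the wild-type (WT) group mean. A gene was kept when it passed that comparison at an adjusted p of 0.05 and all 6 variant libraries lay above, or all lay below, all 3 WT libraries. There were 705 such genes of 16213 tested, 359 higher and 346 lower than WT, and they are called same-side genes below. Because the comparison with WT and the position of the libraries chose them, their differences from WT are given as a description.

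The libraries came from 22Rv1, a human prostate carcinoma cell line that grows without added androgen. All 3 groups carried a short hairpin RNA against PDCD4 and received back 1 form of the protein: wild type (the WT group), the S239A form, in which alanine replaces the serine, or the S239D form, in which aspartate replaces it. The study asked what part PDCD4 phosphorylated by PLK1, a kinase of mitosis, plays in resistance to the antiandrogen drug enzalutamide. Alanine at the site cannot take up a phosphate, and aspartate carries a negative charge that is often used to mimic one. Each group had 3 libraries, and neither parental cells nor cells with the hairpin alone were analysed here. No label tells whether replicate libraries are separate cultures or whether a rescued line was a pool or a clone. The p-values therefore reflect only how far these samples spread, and that spread may be technical.

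PDCD4 is a tumour suppressor that binds the RNA helicase EIF4A1 and keeps it from unwinding structured messenger RNA leaders during translation initiation. S6 kinase phosphorylates PDCD4 in growing cells, after which the SCF ubiquitin ligase with beta-TrCP marks it for degradation. Both variants lack the serine, and both were set against the same WT libraries, so a shift shared by the variants and a shift of the WT libraries alone cannot be told apart.

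The substituted residue lies in exon 6 of 12 of transcript PDCD4-201 in GENCODE release 29, which encodes 469 amino acids. Its codon TCA occupies coding bases 715 to 717 and, on GRCh38, chr10:110887824-110887826 on the forward strand. Coding bases 697 to 735 are shown so that the target of both substitutions can be seen, with the serine codon in capitals. In the shorter PDCD4-202 (458 residues) the same position is a leucine, so the residue number of the labels belongs to the longer form.
PDCD4-201 serine codon: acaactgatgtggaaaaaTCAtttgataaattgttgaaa

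PDCD4 itself was measured in every library. Its level, in counts scaled to library size (CPM), was 24.1, 24.9 and 20.4 in the WT libraries, 19.0, 23.1 and 25 CPM in S239A, and 16.8, 17.1 and 17 CPM in S239D. All S239D libraries were below all WT libraries, while S239A overlapped WT. The average of both variants did not pass (log2 fold change -0.24 ± 0.11 SE, edgeR adjusted p = 0.169). S239D on its own was lower than WT (-0.44 ± 0.13, edgeR adjusted p = 0.0164) and lower than S239A (-0.40 ± 0.13, edgeR adjusted p = 0.0245). The part of this lower PDCD4 level in the S239D values below was not tested. Reads of the resident gene and of a rescue construct cannot be told apart in these counts.

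Totals ran from 5696841 to 9688554 counts per library. The first principal component (61.2% of variance) set the S239D libraries apart, and the second (11.3%) set apart library 2 of S239A and library 2 of S239D. Mitochondrially encoded transcripts held 2.95% ± 0.11 of WT counts, 3.90% ± 1.29 of S239A counts and 5.21% ± 0.70 of S239D counts (SD, n = 3), and were highest in those same libraries at 5.38% and 6.01%. The 10 luminal prostate and 22Rv1 markers were all detected, with summed levels of 5119 to 5213 CPM in WT, 5328 to 5573 in S239A and 3655 to 4104 in S239D. Among markers of other cells, the endothelial gene CDH5, the T-cell genes CD3D, CD3E and CD2 and the macrophage gene AIF1 were at 0 in every library. Fibroblast markers were not absent, with summed levels of 63.5 to 75.3 CPM in WT, 67.6 to 75.1 in S239A and 45.2 to 55.8 in S239D. Most markers of other cells were too low to be tested: 4 of 8 fibroblast, 0 of 6 endothelial, 1 of 6 macrophage, 1 of 6 T and B cell, 0 of 3 other immune and 1 of 4 basal markers passed the filter, and none of those was a same-side gene.

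The average of both variants was first compared with WT, a comparison that a gene can pass through 1 variant alone. It called 2592 genes, or 16.0% of those tested, 1078 of them higher (6.65%) and 1514 lower (9.34%). Of all genes tested, 1119 (6.90%) had no overlap between the 6 variant and 3 WT libraries, 563 higher (3.47%) and 556 lower (3.43%). The genes that met both conditions were 4.35% of those tested (2.21% higher and 2.13% lower), and the other 1887 called genes had overlapping libraries. Just inside the limit of the test lay ZC3H4, at 50.2 ± 0.765 CPM in WT and a mean of 63.1 CPM over the variants. Just outside lay KXD1, at 70.8 ± 3.97 CPM in WT and 59.2 CPM over the variants (SD, n = 3), with an edgeR adjusted p of 0.0503.

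The size of this set depended on the fit and on single libraries. When the 6 variant libraries were fitted as 1 group against WT, so that the difference between S239A and S239D entered the spread, edgeR called 0 genes, with 1504 (9.28%) at an unadjusted p under 0.05. Limma on log2(TPM + 1) gave 232 same-side genes, 156 of them among the 705. Leaving out WT library 1 or 3 gave 427 or 444, and leaving out library 2 of S239A gave 1255.

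The 2 variants did not move by equal amounts. The median absolute log2 fold change of the 705 genes against WT was 0.25 in S239A and 0.59 in S239D. S239D differed from S239A at an adjusted p of 0.05 in 391 of them (55.5%, against 43.6% of all genes tested, in which S239D was above S239A in 20.9% and below it in 22.7%), and S239D was the farther from WT in 389 of these. Taken against WT on its own, S239D passed in 691 of the 705 genes, beside 41.4% of all genes tested (19.7% higher and 21.7% lower). S239A passed in none of them. Over all genes S239A against WT called 1 gene (0.00617%), TXNIP, and 1583 (9.76%) at an unadjusted p under 0.05, of which 431 were same-side genes, while DESeq2 called 65 over all genes. Both variant comparisons share the WT libraries, so their values are set side by side here and not used as independent evidence.

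A stricter question was whether each variant on its own differed from WT in the same direction. This was asked with the larger of the 2 p-values, adjusted over all genes. With edgeR 0 genes passed; 551 (3.40%) had an unadjusted larger p under 0.05, 320 higher (1.97%) and 231 lower. DESeq2 called 3 (PGK1, FASN and NDUFA4L2), the unfiltered edgeR fit called 25, and limma on log2(TPM + 1) called 0, with 396 at an unadjusted p under 0.05. With library 2 of both variants left out, edgeR called 141. Shifts of at least 1.5-fold in both variants were seen in 72 of the 705 genes, a description only, since the share over all genes was not computed.

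**Figure D1:**
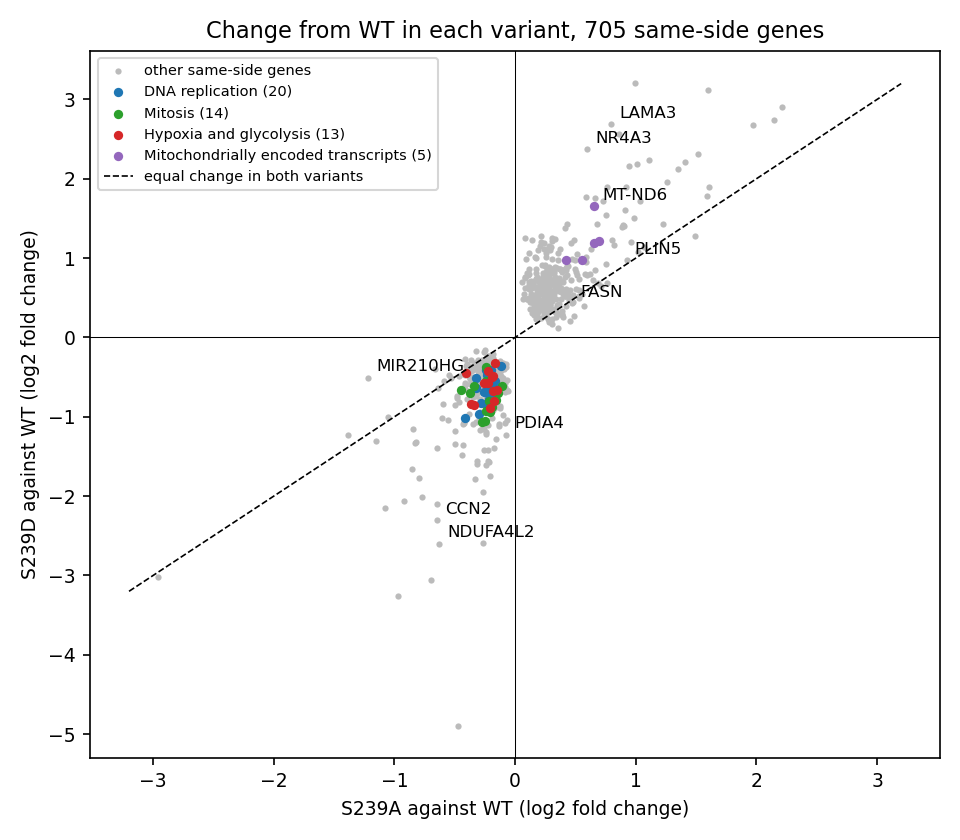
Log2 fold change against WT in S239A (horizontal axis) and in S239D (vertical axis) for each of the 705 same-side genes, with 4 gene groups in colour and a dashed line where both changes are equal. Most points lie on the S239D side of the dashed line, with medians of 0.25 in S239A and 0.59 in S239D, and the 20 DNA replication, 14 mitosis and 13 hypoxia and glycolysis genes all lie below WT.

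Among same-side genes with a symbol and at least 5 CPM, NDUFA4L2 had the smallest p. It encodes a mitochondrial protein induced in low oxygen that replaces a respiratory chain subunit. Its level was 110, 111 and 104 CPM in WT, 71.5, 61.6 and 76.9 in S239A, with 18.6, 16.4 and 18.6 in S239D. The 3 groups were fully separated, with S239A between WT and S239D. The average of both variants fell by 1.61 ± 0.09 on the log2 scale (edgeR adjusted p = 1.13e-07), at -0.63 in S239A (adjusted p = 0.116) and -2.60 in S239D (adjusted p = 1.8e-09). S239D was lower than S239A by a log2 difference of -1.97 ± 0.11 (adjusted p = 1.84e-08).

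CCN2, a secreted matricellular protein and a textbook target of YAP and TEAD, fell from 19.1, 19.5 and 23.2 CPM in WT to 15.8, 11.6 and 12.2 in S239A and 4.53, 4.93 and 3.15 in S239D. No variant library reached the lowest WT library. The log2 fold change of the average was -1.48 ± 0.15 (edgeR adjusted p = 4.18e-05). Its promoter is shown because it is a well-studied one. The 250 bases before the RefSeq start (GRCh38.p14, chr6:131951373-131951622, reverse strand) hold 3 copies of GGAATG, the core that TEAD factors recognise, in capitals. This hexamer, searched on both strands, was present in 11.9% of the 27305 promoters in the table, in 9.28% of genes tested, in 11.32% of the 265 lower same-side genes with a promoter there and in 8.43% of the 249 higher ones.
CCN2: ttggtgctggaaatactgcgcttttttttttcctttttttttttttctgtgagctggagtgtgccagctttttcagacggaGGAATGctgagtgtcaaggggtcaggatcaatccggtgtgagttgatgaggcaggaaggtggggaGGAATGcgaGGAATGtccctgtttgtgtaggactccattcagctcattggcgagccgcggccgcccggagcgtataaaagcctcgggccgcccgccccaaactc

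Upward, LAMA3, the alpha chain of the epithelial basement membrane protein laminin 332, rose from 2.93, 2.63 and 1.93 CPM in WT to 5.18, 4.18 and 3.69 in S239A and 15.1, 17.8 and 15.4 in S239D. NR4A3, an orphan nuclear receptor induced within minutes of many stimuli, rose from 5.64, 6.32 and 4.87 CPM to 7.16, 8.85 and 9.12 and then 25.4, 31.6 and 29.4. S239A lay above WT by 0.80 (LAMA3) and 0.60 (NR4A3) on the log2 scale, and S239D by 2.69 and 2.37. The log2 fold changes of the average were 1.74 ± 0.20 (edgeR adjusted p = 0.000125) for LAMA3 and 1.48 ± 0.15 (adjusted p = 4.18e-05) for NR4A3. NCMAP, a membrane protein of myelin, and KISS1R, the kisspeptin receptor, were the other falls with the largest average, at -1.43 and -1.11, and both were carried mainly by S239D (-2.59 and -1.95, beside -0.27 and -0.26 in S239A).

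A smaller set moved by nearly the same amount in both variants. FASN, the fatty acid synthase that prostate carcinoma cells use to make lipid, was at 1997, 2061 and 2107 CPM in WT, 2764, 3083 and 2722 in S239A, with 3019, 2561 and 2719 in S239D. Every variant library was above every WT library and the variants overlapped each other. The average rose by 0.45 ± 0.07 on the log2 scale (edgeR adjusted p = 0.000938), and S239D against S239A was -0.05, with a 95% interval of -0.22 to 0.12. PLIN5, a lipid droplet coat protein, was at 4.88, 4.39 and 3.29 CPM in WT, 8.15, 6.88 and 8.71 in S239A, with 8.33, 7.15 and 9.13 in S239D. Its average rose by 0.95 ± 0.19 (adjusted p = 0.00409).

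EEF1E1, a scaffold subunit of the multi-tRNA synthetase complex, fell from 29.8, 25.8 and 24.1 CPM in WT to 18, 13.9 and 20.9 in S239A and 18.1, 18.4 and 18.2 in S239D. The log2 fold changes were -0.59 in S239A and -0.55 in S239D. TRGC1, a T-cell receptor gamma constant gene whose locus is also transcribed in prostate epithelium, fell by 0.48 on average, from 90.9 to 93.1 CPM in WT to 60.4 to 74.5 CPM over the variants. MTFR2, a regulator of mitochondrial fission, and TEX30 fell by 0.51 and 0.64 on average, with -0.54 and -0.64 in S239A and -0.48 and -0.63 in S239D.

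MIR210HG, the host transcript of the hypoxia-induced microRNA miR-210, and LAMB2, a laminin chain, were the 2 same-side genes in which S239A was farther from WT and the variants differed at an adjusted p of 0.05. MIR210HG was at 8.02, 8.6 and 7.93 CPM in WT, 2.96, 2.70 and 4.71 in S239A, with 5.76, 4.69 and 6.72 in S239D. The average fell by 0.86 ± 0.19 (edgeR adjusted p = 0.00896), and S239D was above S239A by 0.71 ± 0.24 (adjusted p = 0.028). EDN1, which encodes the vasoconstrictor peptide endothelin, fell by 0.62 ± 0.15 (adjusted p = 0.0122), with -0.48 in S239A and -0.76 in S239D. Other falls that the rule for named genes picked were ZIK1 at -0.92, ARHGEF19 at -0.80 and C20orf96 at -0.61. Rises it picked were RSKR at 0.69 and E2F5, a repressive E2F family member, at 0.69. STIMATE-MUSTN1, ANKRD36, SMG1P5, CCDC144CP and the mitochondrial pseudogene MTCO1P12 also rose (0.68 to 1.08), but their reads overlap those of neighbours or near-identical copies and their counts are uncertain.

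**Figure D2:**
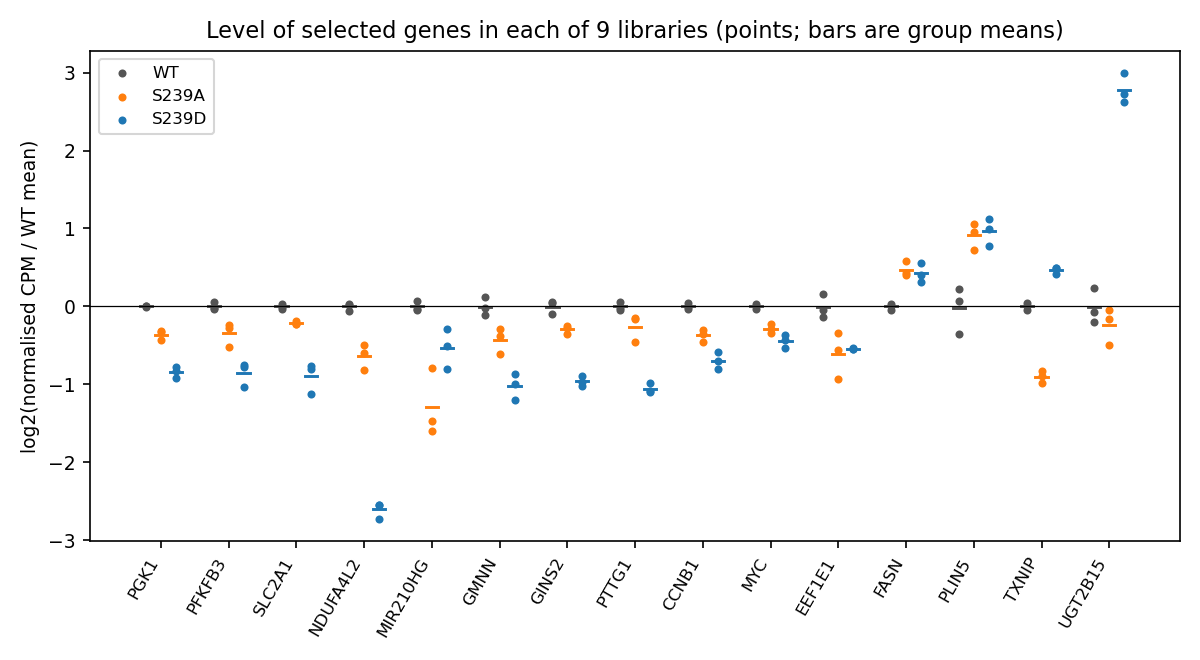
Level of selected genes in each of the 9 libraries, as log2 of normalised CPM over the WT mean; points are libraries and short bars are group means. PGK1 to EEF1E1 lie below WT in both variants and FASN and PLIN5 above it, while TXNIP goes down in S239A and up in S239D and UGT2B15 rises in S239D alone.

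DNA replication genes that met the rule were all on the lower side. Of 60 members tested, 20 were same-side genes below WT (33.3%, against 2.13% of all genes tested) and 0 were above it. The median log2 fold change of all 60 was -0.32 for the average, -0.18 in S239A and -0.42 in S239D, beside -0.01 for the average over all genes. Fewer cells in S phase and less of these RNAs per cell cannot be told apart in bulk samples. The members below WT included GINS2 and GINS1 of the replicative helicase, CDC45, MCM3, MCM5 and MCM10, the licensing inhibitor GMNN, the sliding clamp PCNA, its loader subunits RFC2, RFC3 and RFC5, the flap nuclease FEN1, the histone chaperones ASF1B, CHAF1A and CHAF1B, the histone messenger binding protein SLBP, the dUTP hydrolase DUT, RPA2 and UHRF1. The changes of the 20 ran from -0.42 to -0.12 in S239A and from -1.02 to -0.36 in S239D.

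GMNN, which keeps origins from firing again within a cycle, was at 59.2, 65.3 and 55.8 CPM in WT, 46.2, 39.3 and 49.1 in S239A, with 30.1, 32.8 and 26.1 in S239D. GINS2 was at 56.9, 50.9 and 56.2 CPM in WT, 45.8, 42.9 and 45.2 in S239A, with 29.5, 27.9 and 26.9 in S239D. The groups of both genes stood in the same order without overlap. The average fell by 0.72 ± 0.10 for GMNN (edgeR adjusted p = 0.000421) and by 0.63 ± 0.08 for GINS2 (adjusted p = 0.000268). PCNA was at 201, 204 and 194 CPM in WT, 159, 151 and 169 in S239A, with 114, 139 and 132 in S239D.

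Promoters of the replication genes are shown because S-phase genes are textbook targets of E2F factors, although most of the same-side members did not hold the letters searched. The letters TTTCCCGC, on either strand, were found in the 250 bases before the start of 5 of the 17 same-side members with a promoter in the RefSeq table (29.41%): GINS2, MCM3, PCNA, RFC3 and UHRF1. They were found in 17.65% of the whole list, in 2.15% of genes tested and in 1.42% of all promoters. The examples below, chosen after the search, are GRCh38.p14 chr20:5126623-5126872 (reverse strand) and chr13:33817899-33818148 (forward strand), with the match in capitals.
PCNA: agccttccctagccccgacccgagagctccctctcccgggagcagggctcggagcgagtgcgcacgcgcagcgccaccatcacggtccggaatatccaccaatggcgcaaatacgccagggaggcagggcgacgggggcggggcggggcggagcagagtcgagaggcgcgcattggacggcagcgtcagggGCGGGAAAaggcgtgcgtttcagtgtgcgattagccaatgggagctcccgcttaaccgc
RFC3: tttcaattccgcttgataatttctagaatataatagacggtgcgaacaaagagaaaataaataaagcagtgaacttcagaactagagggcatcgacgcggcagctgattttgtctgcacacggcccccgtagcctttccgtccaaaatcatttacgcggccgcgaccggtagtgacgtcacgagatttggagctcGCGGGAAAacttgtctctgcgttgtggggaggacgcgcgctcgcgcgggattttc

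Mitosis genes that met it were also all on the lower side. Of 62 members, 14 were below WT in both variants (22.6%, against 2.13% of all genes tested) and 0 above. The median of all 62 was -0.36 for the average, -0.12 in S239A and -0.61 in S239D. The 14 were the securin PTTG1, the cyclin CCNB1 and its kinase CDK1, the anaphase activator CDC20, the conjugating enzyme UBE2C, the checkpoint protein MAD2L1, the chromosomal passengers BIRC5 and CDCA8, the centromere histone CENPA, the kinetochore protein SPC25, the spindle proteins NUSAP1 and PRC1, the cytokinesis factor ECT2 and the mitotic kinase PBK. PTTG1 was at 74.3, 70.6 and 69.2 CPM in WT, 64.3, 52.0 and 63.6 in S239A, with 33.6, 36.1 and 33.5 in S239D. CCNB1 was at 147, 142 and 139 CPM in WT, 111, 115.8 and 104 in S239A, with 81.8, 94.6 and 87.4 in S239D. Both separated all 3 groups, with averages of -0.65 ± 0.09 (edgeR adjusted p = 0.000318) and -0.53 ± 0.07 (adjusted p = 0.000341).

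PLK1, the kinase the study places upstream of the site and itself a mitotic gene, was not among them. It was at 98.2, 99.6 and 98.8 CPM in WT, 92.2, 83.2 and 87.6 in S239A, with 96.5, 93.5 and 87.9 in S239D. All 6 variant libraries were below WT, by a small margin that did not pass (log2 fold change -0.13 ± 0.07, edgeR adjusted p = 0.217).

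In the list's median by library, library 2 of S239A stood at 0.00 for mitosis genes while libraries 1 and 3 stood at -0.15 and -0.17. Without it, 35 of the 62 mitosis genes and 30 of the 60 DNA replication genes were on the lower side in every remaining library and passed the test. The whole set grew as well, with 646 of all 16549 genes tested on the lower side in that fit, beside 346 of 16213 in the main fit. With trends over GC content and transcript length removed the counts were 11 and 22, beside 351 of 16213 over all genes. With limma on log2(TPM + 1) they were lower, at 8 mitosis and 7 DNA replication genes, beside 100 of 17363 over all genes.

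Mitotic promoters are known for pairing a CCAAT box, bound by NF-Y, with a cell cycle homology element, TTTGAA, bound by the DREAM complex. CCAAT, on either strand, was in all 11 promoters of same-side mitosis genes that the table held, in 39 of 52 of the whole list, in 34.96% of genes tested and in 33.04% of all promoters. TTTGAA was in 7 of the 11 (63.64%), in 26 of 52 of the list and in 8.03% of genes tested. CDC20 (chr1:43358731-43358980) and CDCA8 (chr1:37692266-37692515), both on the forward strand of GRCh38.p14, were chosen after the search as examples with the matches close together, and both motifs are in capitals on whichever strand they occur. In CDCA8 the last pair overlap. Elsewhere the matches lay farther apart, as in SPC25, with TTTGAA at -247 and CCAAT at -88 and -56, counted from the RefSeq start. CDC20 was at 176, 176 and 185 CPM in WT, 161, 159 and 166 in S239A, with 121, 102 and 108 in S239D, and CDCA8 fell by 0.31 on average.
CDC20: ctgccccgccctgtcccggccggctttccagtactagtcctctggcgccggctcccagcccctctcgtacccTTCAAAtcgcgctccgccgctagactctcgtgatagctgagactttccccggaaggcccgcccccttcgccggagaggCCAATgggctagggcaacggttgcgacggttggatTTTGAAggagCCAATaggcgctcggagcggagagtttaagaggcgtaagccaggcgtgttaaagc
CDCA8: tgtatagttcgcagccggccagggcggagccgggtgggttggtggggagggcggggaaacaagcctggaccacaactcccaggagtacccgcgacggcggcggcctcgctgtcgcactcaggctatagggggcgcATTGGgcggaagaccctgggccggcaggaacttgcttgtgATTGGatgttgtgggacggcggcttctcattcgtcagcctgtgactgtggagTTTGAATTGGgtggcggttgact

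Glycolysis and hypoxia genes formed the third large group on the lower side. Of 45 members tested, 13 were below WT in both variants (28.9%, against 2.13% of all genes tested) and 0 above. The median over all 45 was -0.34 for the average, -0.13 in S239A and -0.49 in S239D. The 13 included the glycolytic enzymes ALDOA, TPI1, PGK1, PGAM1 and ENO1 and also LDHA, which turns pyruvate to lactate. The glucose transporter SLC2A1, the glycolytic activator PFKFB3, the pyruvate dehydrogenase kinase PDK1, the mitophagy receptor BNIP3, the stress protein NDRG1, the oxidoreductase ERO1A and the cytokine MIF completed them.

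PGK1, the first ATP-yielding step of glycolysis, was at 530, 531 and 523 CPM in WT, 423, 390 and 420 in S239A, with 279, 297 and 308 in S239D. The groups were far apart for their spread, and the average fell by 0.60 ± 0.06 (edgeR adjusted p = 4.23e-05), at -0.36 in S239A and -0.84 in S239D. SLC2A1 was at 88.2, 90.4 and 86.2 CPM in WT, 75.4, 75.7 and 77.9 in S239A, with 50.5, 40.6 and 52.2 in S239D. PFKFB3 was at 80.6, 81.1 and 85.9 CPM in WT, 68.0, 57.8 and 69.8 in S239A, with 49.2, 40.2 and 48.3 in S239D. The averages of SLC2A1 and PFKFB3 fell by 0.55 ± 0.08 (adjusted p = 0.000872) and 0.59 ± 0.09 (adjusted p = 0.000738), and that of NDRG1 by 0.49 ± 0.07 (adjusted p = 0.000332).

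BNIP3 stood at similar distances from WT in both variants, -0.41 in S239A and -0.44 in S239D. It was at 88.9, 92.4 and 89.1 CPM in WT, 67.8, 63.3 and 72.2 in S239A, with 67.4, 67.7 and 63.5 in S239D. In S239D against S239A the difference was -0.04, with a 95% interval of -0.22 to 0.15. The count of 13 rose to 21 without library 2 of S239A and was 8 with trends over GC content and transcript length removed. Over all genes, 646 of 16549 and 351 of 16213 were on the lower side in these 2 fits. With limma on log2(TPM + 1) 5 of the 45 members were on the lower side, beside 100 of 17363 over all genes.

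The core of the hypoxia response element, ACGTG, was found on either strand in 5 of the 12 same-side promoters of this list (41.67%), beside 20 of 40 in the whole list, 23.28% of genes tested and 18.68% of all promoters. The share among same-side members was thus below that of their own list. PGK1 and LDHA are printed as classic hypoxia-inducible promoters. They lie at GRCh38.p14 chrX:78103998-78104247 and chr11:18394313-18394562, on the forward strand. Capitals mark ACGTG on either strand, which in LDHA includes palindromic CACGTG.
PGK1: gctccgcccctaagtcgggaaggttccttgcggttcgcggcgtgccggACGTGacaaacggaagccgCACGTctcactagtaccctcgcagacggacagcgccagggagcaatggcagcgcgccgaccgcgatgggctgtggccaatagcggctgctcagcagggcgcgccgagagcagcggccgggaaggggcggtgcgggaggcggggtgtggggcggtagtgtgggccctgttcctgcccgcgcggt
LDHA: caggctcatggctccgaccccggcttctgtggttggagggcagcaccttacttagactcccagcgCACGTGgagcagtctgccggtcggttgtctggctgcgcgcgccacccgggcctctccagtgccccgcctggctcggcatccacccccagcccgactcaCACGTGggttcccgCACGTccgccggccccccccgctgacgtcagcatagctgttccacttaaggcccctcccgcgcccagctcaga

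**Figure D3:**
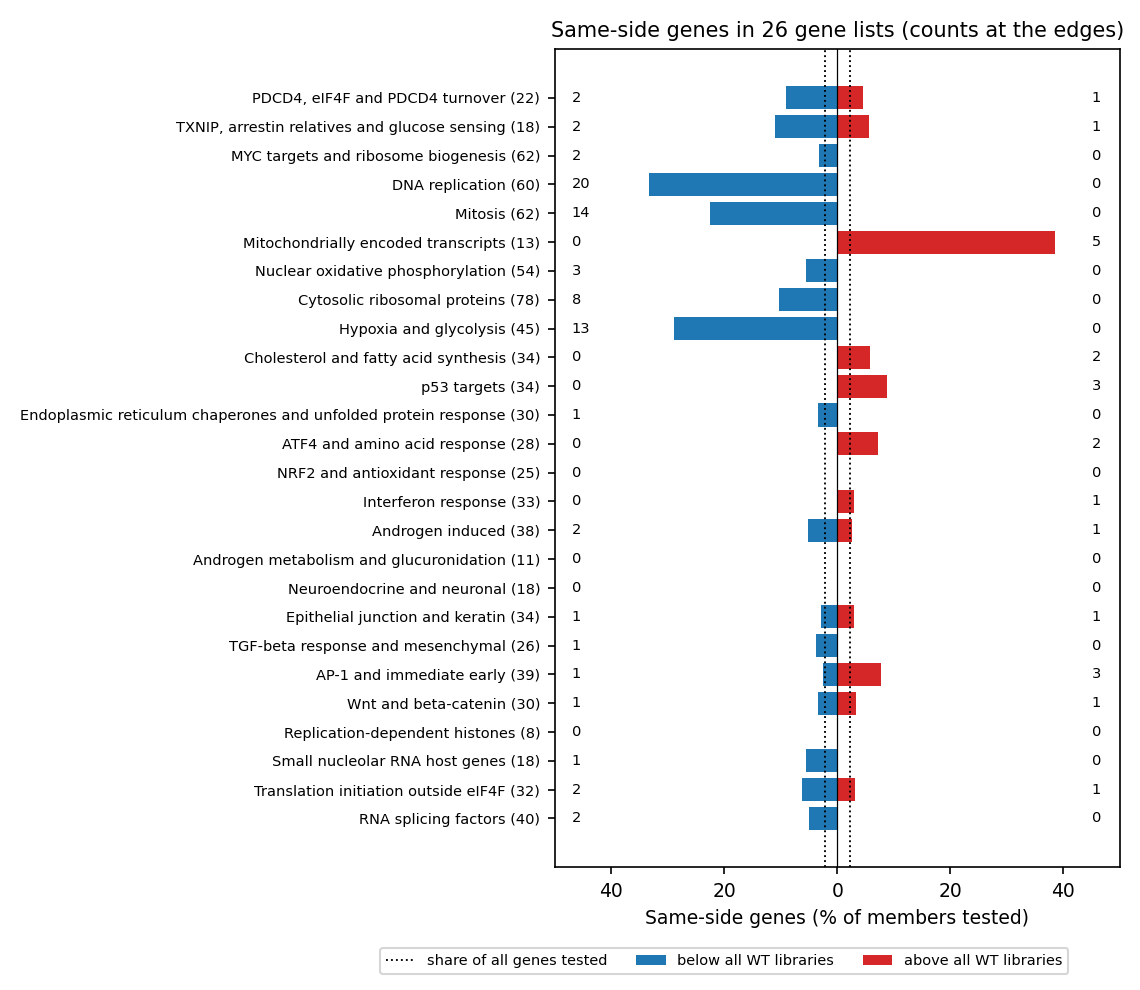
Share of tested members of 26 gene lists that were same-side genes, below WT to the left and above WT to the right, in percent, with counts at the edges, list sizes in parentheses and dotted lines at the shares of all genes tested (2.13% lower and 2.21% higher). DNA replication, hypoxia and glycolysis, and mitosis reach furthest to the left, at 33.3%, 28.9% and 22.6%, and mitochondrially encoded transcripts furthest to the right, at 38.5%.

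The clearest group on the higher side was the mitochondrial genome, which encodes subunits of the respiratory chain. Of 13 transcripts, 5 were above WT in both variants (38.5%, against 2.21% of all genes tested). All 5 were complex I subunits: MT-ND3, MT-ND4, MT-ND4L, MT-ND5 and MT-ND6. The complex I subunits MT-ND1 and MT-ND2 are also in the list and did not meet the rule. The rise was not limited to the 5. Of the 13, 11 passed upward in the average and 12 in S239D against WT, beside 6.65% and 19.7% of all genes tested. MT-ND6, the only protein-coding gene on the light strand, was at 156, 209 and 189 CPM in WT, 286, 349 and 236 in S239A, with 383, 724 and 635 in S239D. Its average rose by 1.16 ± 0.18 (edgeR adjusted p = 0.000821). MT-ND5 was at 1652, 1568 and 1688 CPM in WT, 2072, 3805 and 1830 in S239A, with 3338, 4369 and 3507 in S239D. In MT-ND5 library 2 of S239A stood with the S239D libraries and the other 2 stood just above WT.

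The same library stood apart in the whole list. Its median over the 13 transcripts was 0.89 above the WT mean on the log2 scale, beside 0.23 and 0.05 in the other S239A libraries and 0.75, 1.11 and 0.82 in S239D. Without it the median change in S239A was 0.14 instead of 0.42, and 5 of the 13 were still same-side genes. Without library 3 of S239A the count was 10. Over all genes, 609 of 16549 were on the higher side without library 2 and 478 of 16472 without library 3. With limma on log2(TPM + 1) 4 of the 13 were on the higher side, beside 132 of 17363 over all genes. Nuclear genes for the respiratory chain did not rise with the mitochondrial transcripts. Of 54 tested, 3 were below WT in both variants (5.56%, against 2.13% of all genes tested) and 0 were above. The 3 were the succinate dehydrogenase subunits SDHB and SDHD and the electron carrier CYCS, at -0.31, -0.35 and -0.30 on average. With limma on log2(TPM + 1) 0 of the 54 were same-side genes.

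**Figure D4:**
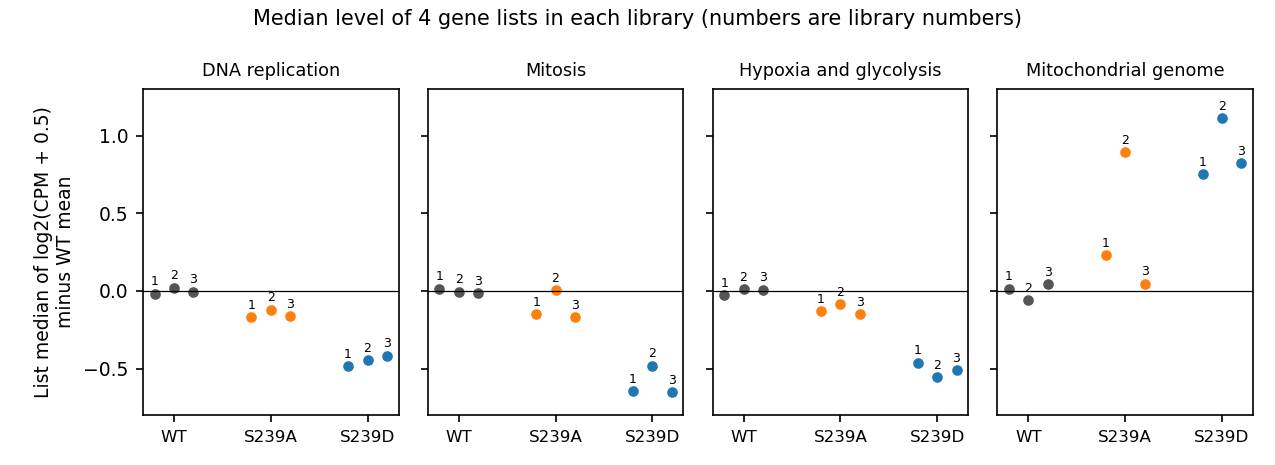
Median over each list's members of log2(CPM + 0.5) minus the WT mean, 1 point per library, with library numbers beside the points. S239A lies between WT and S239D for DNA replication, mitosis, and hypoxia and glycolysis, apart from library 2 at 0.00 for mitosis, and library 2 of S239A stands at 0.89 for the mitochondrial genome.

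Genes of the translation machinery that PDCD4 acts on gave small shifts. EIF4A1, the helicase it inhibits, was at 905, 915 and 899 CPM in WT, 802, 818 and 773 in S239A, with 791, 771 and 786 in S239D. In CPM all variant libraries were below WT. The average fell by 0.20 ± 0.06 on the log2 scale (edgeR adjusted p = 0.0298), nearly alike in S239A (-0.18) and S239D (-0.21). The variants were less alike in TPM, where S239D stood closer to WT. Group means there were 974 TPM (WT), 875 (S239A) and 950 (S239D), with SDs of 22, 34 and 60. Of 18 alternative settings, 10 lost the call, and the change ran from -0.21 to -0.10. The call was lost when any WT library, library 1 or 3 of S239A or library 3 of S239D was left out. It was also lost with trends over GC content and transcript length removed. With limma on log2(TPM + 1) EIF4A1 was not a same-side gene. EIF4A2, the paralogue of EIF4A1, did not pass (0.06 ± 0.08, edgeR adjusted p = 0.676). Of the 22 genes for PDCD4, the cap-binding complex and PDCD4 turnover, the others on one side were SKP1, an adaptor of the SCF ligase, at -0.32, and the growth kinase MTOR at 0.33.

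MYC, the growth-promoting transcription factor, was at 255, 245 and 252 CPM in WT, 214, 198 and 206 in S239A, with 194, 174 and 186 in S239D. The average fell by 0.36 ± 0.06 (edgeR adjusted p = 0.00234). In a list of 62 genes with MYC, its targets and ribosome biogenesis factors, MYC and CDK4 (-0.22) were same-side genes. The median of the list was -0.01 for the average, from medians of opposite sign in the variants, -0.14 in S239A and 0.13 in S239D. In S239D against WT, 20 of its 62 members passed upward and 6 downward, beside 19.7% and 21.7% of all genes tested. Of 32 initiation factors outside the cap-binding complex, EIF3K (-0.35) and EIF5A (-0.25) were lower and EIF3A (0.31) higher. These were 6.25% and 3.12% of that list, beside 2.13% lower and 2.21% higher over all genes tested. The splicing factors SRSF3 (-0.34) and SRSF2 (-0.35) were the 2 same-side genes among 40 of their list, or 5%, both lower.

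Cytosolic ribosomal proteins had 8 same-side members of 78, all lower (10.3%, against 2.13% of all genes tested). They were RPS6, RPS7, RPS10, RPS15A, RPL5, RPL6, RPL21 and RPL23. RPS6 was at 972, 936 and 950 CPM in WT, 880, 869 and 894 in S239A, with 587, 603 and 644 in S239D, a fall of 0.38 ± 0.06 on average (edgeR adjusted p = 0.001). The list's median was -0.03 in S239A and -0.47 in S239D. With trends over GC content and transcript length removed, 0 of the 78 remained same-side genes, and many of these genes have processed pseudogenes that can share their reads.

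Androgen signalling bears on the study's question. Among 38 androgen-induced genes, NDRG1 and FOXA1 were same-side genes below WT, and the median of the list was 0.00. FOXA1, a pioneer factor that opens chromatin in prostate cells, was at 620, 617 and 640 CPM in WT, 521, 584 and 503 in S239A, with 566, 508 and 521 in S239D. No variant library reached the lowest WT library, and the average fell by 0.23 (edgeR adjusted p = 0.0325).

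UGT2B15, which inactivates androgens by glucuronidation, passed the average (1.31 ± 0.15) but was not a same-side gene. Its S239A libraries, at 5.31, 7.25 and 6.66 CPM, overlapped WT at 6.50, 8.78 and 7.14, while S239D stood at 46.1, 59.6 and 49.5. None of the 11 tested genes of androgen metabolism was a same-side gene.

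TXNIP, an arrestin-like protein that restrains glucose uptake, was the reverse case. It passed the average at -0.22 ± 0.06 (edgeR adjusted p = 0.0311) although the variants lay on opposite sides of WT. WT was at 484, 469 and 452 CPM, S239A at 253, 237 and 263, and S239D at 622, 661 and 659. Of the 18 genes of glucose sensing that include TXNIP, the carbohydrate sensor MLXIP was on the higher side (0.26) and SLC2A1 and PFKFB3 on the lower side.

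Among smaller groups, 3 of 34 p53 targets were above WT (8.82%) and 0 below, beside 2.21% and 2.13% of all genes tested. The 3 were ZMAT3 at 0.56 ± 0.09 (edgeR adjusted p = 0.00123), the death receptor TNFRSF10B at 0.31 and the stress sensor SESN2 at 0.31. In S239A the last 2 stood at 0.14 and 0.19. The gap of TNFRSF10B was narrow, with its lowest S239A library at 190.04 CPM and its highest WT library at 189.97. ZMAT3, an RNA-binding protein, was at 41.2, 44.6 and 43.7 CPM in WT, 52.2, 61.2 and 53.5 in S239A, with 65.8, 77.2 and 74.2 in S239D. Of 34 lipid synthesis genes, FASN and the sterol regulator SREBF2 (0.29) were higher. Of 39 AP-1 and immediate early genes, NR4A3, the phosphatase DUSP4 (0.60) and PHLDA1 (0.51) were higher, while the phosphatase DUSP1 (-0.44) was lower. The amino acid response list had ALDH1L2 (0.34) and SESN2 of 28.

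The endoplasmic reticulum list had 1 of 30, PDIA4, a disulfide isomerase. It stood at 1103, 1038 and 1059 CPM in WT and 1005, 1011 and 1019 in S239A, but at 449, 447 and 475 in S239D. Its place among the same-side genes thus rested on a narrow gap in S239A (-0.08, edgeR adjusted p = 0.76). Single members were found for the interferon list (TAPBP at 0.29 of 33), the TGF-beta list (CCN2 of 26) and the small nucleolar RNA hosts (SNHG16 at -0.27 of 18). Epithelial genes split between DSP (0.49) and EPCAM (-0.40), and Wnt genes between LRP6 (0.30) and LEF1 (-0.41). The antioxidant, neuroendocrine and replication-dependent histone lists held none, of 25, 18 and 8 tested.

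Together the 26 lists held 94 of the 705 genes, 73 lower and 21 higher, so 611 lay outside them. Of the 705, 661 had a symbol and 622 of these averaged at least 5 CPM. The 10 higher genes with the smallest p among them, a choice made after their values were seen, were MALAT1, SRRM2, NR4A3, CHD2, MROH1, LAMA3, ZFP62, PER1, ASH1L and ST3GAL1. MALAT1, a long noncoding RNA kept in nuclear speckles, was at 194, 199 and 191 CPM in WT, 219, 214 and 245 in S239A, with 467, 473 and 473 in S239D. SRRM2, a scaffold of the same speckles, was at 495, 487 and 521 CPM in WT, 606, 667 and 590 in S239A, with 968, 1016 and 988 in S239D. The averages rose by 0.75 and 0.65, with S239A at 0.22 and 0.31.

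The 10 lower genes with the smallest p were NDUFA4L2, PDIA4, HMGB2, STMN1, TUBA1A, CCN2, PGK1, KISS1R, DHRS2 and HBA2, the last of which has a near-identical neighbour and an uncertain count. HMGB2, a chromatin protein abundant in dividing cells, was at 660, 621 and 613 CPM in WT, 576, 444 and 604 in S239A, with 214, 197 and 231 in S239D. STMN1, which destabilises microtubules, was at 409, 401 and 398 CPM in WT, 363, 323 and 352 in S239A, with 174, 196 and 193 in S239D. In both genes most of the change was in S239D, at -1.56 and -1.10, beside -0.22 and -0.22 in S239A.

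A property the rule did not use, transcript length, set the higher and lower genes apart. The longest transcript of a gene in GENCODE had a median of 7782 bases in the higher genes, 2541 in the lower genes and 3430 over all genes tested. Among tested genes of 8000 bases and over, 174 of 1286 (13.5%) were on the higher side and 4 (0.311%) on the lower side. Among those of 1000 to under 2000 bases, 18 of 2463 (0.731%) were higher and 91 (3.69%) lower. In genes of at least 5 CPM the medians were 8224, 2520.5 and 3723 bases. The part of library composition or RNA quality in this difference was not tested.

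Long genes on the higher side included the chromatin regulators ASH1L, KMT2A and KMT2D and the giant ubiquitin ligases HUWE1 and UBR4, named here as examples after their lengths were seen. When trends over GC content and transcript length were removed from the fit, 669 genes met the rule, 417 of them among the 705 (59.1%), and the medians became 4940 bases higher and 3317 lower. GC content of the longest transcript differed less, with medians of 49.4% in higher, 45.7% in lower and 48.9% in all genes. Protein-coding genes were 86.1% of the higher and 94.2% of the lower genes, beside 84.9% of all genes tested.

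**Figure D5:**
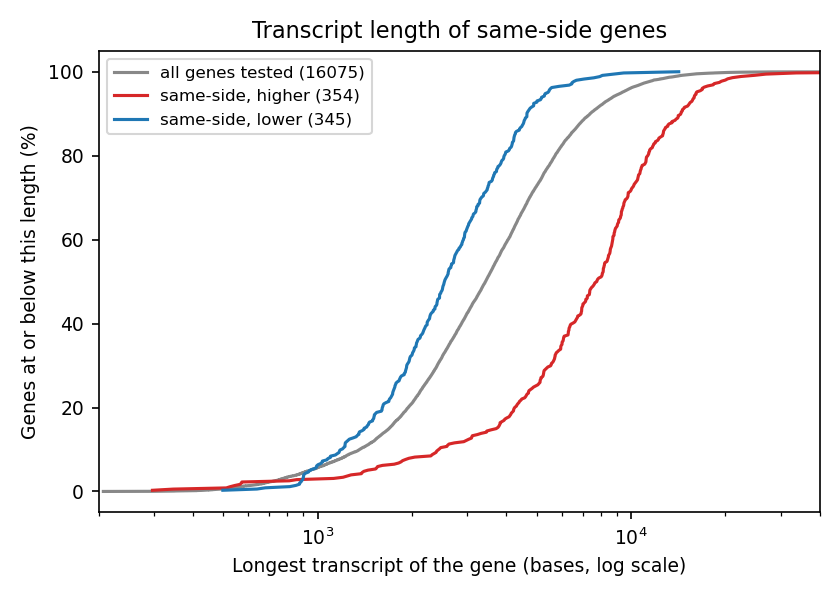
Cumulative share of genes (vertical axis, percent) by length of the longest transcript (horizontal axis, bases, log scale), for all genes tested and for same-side genes above and below WT. The higher genes lie to the right, with a median of 7782 bases, and the lower genes to the left, with a median of 2541 bases, beside 3430 for all genes.

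By chromosome, same-side genes above WT were 3.96% of the 885 genes tested on chromosome 3 (35 genes) and 4.31% of the 232 on chromosome 18 (10 genes), beside 2.21% overall. On both chromosomes the median change of all genes was close to 0 in S239A (-0.01 and -0.03) and raised in S239D (0.22 and 0.21). These shares are descriptions, and gene copy number was not measured.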

How the data were processed

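The 9 libraries, 3 per group, hold 22Rv1 RNA enriched for poly(A) tails and copied from random primers, per the labels' protocols. The authors deposited expected counts per gene, which the submitters' processing notes tie to RSEM, with no normalization between libraries, and TPM, scaled within each library by the authors. The notes also name Trimmomatic 0.39. The aligner, the annotation release and whether reads keep their strand are not given in the sources used here, so reads of overlapping antisense genes cannot be told apart. Coordinates of genes are those of the deposited table, of whose identifiers 96.52% were found in GENCODE release 29, and 99.92% of these overlapped the GRCh38 gene.

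Expected counts (3.81% of values not whole) were rounded, filtered with filterByExpr and scaled by TMM, leaving 16213 of 60623 genes. The authors' table left 22747 genes without a symbol, which held 1.33% of counts and stayed in the tests. Two-sided quasi-likelihood F tests were run with edgeR 4.0.16 in R 4.3.3 on 1 fit of the 3 group means, with Benjamini-Hochberg adjustment over all genes tested. A count of 3 per library was taken as the floor. The code was tested on simulated data. Alternatives were RLE scaling, DESeq2 1.42.0, limma 3.58.1 on log2(TPM + 1), other filters, the replicate number as a block, both variants as 1 group, and libraries left out. Libraries of S239A and S239D with the same number deviated together (correlations across genes of 0.13, 0.33 and 0.15), most in library 2. Libraries with unlike numbers were not compared in this way. These values therefore cannot decide whether the numbers pair the 2 groups, and the labels state no pairing. The tests reported carry no block, and the blocked counts stand with the alternatives. WT libraries did not deviate with either (-0.02 to 0.07). A fit without trends over GC content and transcript length was chosen after seeing the data.

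The members, the 26 gene lists and the rules were chosen with earlier results of these data known. Genes named were PDCD4, PLK1, MYC, EIF4A1, EIF4A2, TXNIP and UGT2B15. To these the rule added, among same-side genes with a symbol and at least 5 CPM, the 12 rises and 12 falls with the largest smaller variant change, the 4 rises and 4 falls with the largest average, and up to 2 members of each list with the smallest p. Not all genes picked by the rule are named. Promoters are the 250 bases before the start in RefSeq (GRCh38.p14), and were held for 11327 genes tested.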

Additional observations from a re-analysis of the deposited data

Results flagged for a closer look

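TXNIP moved in opposite directions in the variants, with all S239A libraries below and all S239D libraries above WT. S239D exceeded S239A by 1.37 on the log2 scale (edgeR adjusted p = 1.67e-08), so the average of both variants, at -0.22, describes neither.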

How the results depend on the processing

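Counts were within 1.5 times the reported value under the settings not listed here. For the average of both variants (2592), limma gave 632, both variants as 1 group 0, and leaving out library 2 of both variants 5396; single libraries left out gave 1108 to 3226, lowest without a WT library (1126, 1292 and 1108). Same-side genes (705) became 232 with limma, 0 with both variants as 1 group and 2033 without library 2 of both variants, and 427 to 1255 with single libraries left out. For genes that differed from WT in each variant (0), DESeq2 gave 3, no filter 25, leaving out library 2 of both variants 141 and removed trends 1. S239A against WT (1) gave 65 with DESeq2, 2 with limma, 142 with no filter, 874 without library 2 of both variants, 19 with removed trends and 1 to 8 with single libraries left out. S239D against WT (6708) and against S239A (7064) gave 4351 (2526 higher, 1825 lower) and 4697 (2784 higher, 1913 lower) with limma. The cause was not tested.

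The replicate block changed no count by over 1.5 times except that of S239A against WT. In 1 fit of all libraries it gave 3198 calls for the average, 768 same-side genes, 0 genes moved in each variant, 6 for S239A against WT, 7275 for S239D against WT and 7610 for S239D against S239A.

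For single named genes, 1023 of 1242 alternative values kept the result of the main fit, called or not called. Of the rest, 219 lost a call and 0 changed direction. PDCD4, PLK1 and EIF4A2 had no call in the main fit and each gave 18 of the values that kept their result. Each of the called genes lost its call with both variants as 1 group (smallest adjusted p 0.527). Besides limma, which ended many calls, leaving out at least 1 WT library ended those of ALDH1L2, ANKRD36, ARHGEF19, C20orf96, CCDC144CP, CDK4, DSP, E2F5, EDN1, EEF1E1, EIF4A1, EIF5A, EPCAM, LRP6, MTFR2, MTOR, RSKR, SDHB, SESN2, SKP1, SMG1P5, SNHG16, SREBF2, TAPBP, TEX30, TNFRSF10B and TXNIP. The trends removed ended those of EIF4A1, EIF5A, LRP6 and TXNIP among the genes named here.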
